A study of Mus musculus with 15 samples.

Results

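The amino acid transporters described here are 10 genes of the plasma membrane solute carrier families that bring amino acids into mouse B cells: Slc3a2, Slc7a5, Slc7a6, Slc7a11, Slc7a1, Slc7a3, Slc1a4, Slc1a5, Slc38a1 and Slc38a2. They were chosen by symbol with earlier results of these data known, and all 10 were measured among the 31350 genes of the table. Each gene is summarised by its middle exon region, taken as a median on the log2 scale, and rows annotated to more than 1 gene are left out. The members have between 12 and 26 exon regions and between 7 and 17 exon junctions each, 192 exon regions and 121 junctions in all.

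The samples were splenic B cells of C57BL/6 mice, isolated from each animal on MACS columns. The groups were 3 arrays of ELL2 cko (conditional knockout) cells cultured for 72 hours with lipopolysaccharide (LPS), 4 arrays of WT cells cultured in the same way, 4 arrays of ELL2 cko cells without LPS and 4 arrays of WT cells without LPS. ELL2 is an RNA polymerase II elongation factor, and LPS is a bacterial cell wall component that drives B cells to divide and to become antibody-secreting cells. The Cre driver, the deleted exons and the ages of the mice are not given in the sources used here. Cells without LPS were processed at once, and no group was cultured without LPS, so LPS and 72 hours of culture cannot be told apart. In RNA of a mixed population, fewer cells of a type and less RNA per cell cannot be told apart either.

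Amino acid uptake sets a limit on protein synthesis, and growing lymphocytes raise it together with mTORC1 activity. SLC3A2 (4F2hc, CD98) is a heavy chain that carries several SLC7 light chains to the cell surface. With SLC7A5 (LAT1) it exchanges intracellular glutamine for leucine and other large neutral amino acids, with SLC7A6 (y+LAT2) it exchanges cationic for neutral amino acids, and with SLC7A11 (xCT) it exchanges glutamate for cystine. SLC7A1 (CAT1) and SLC7A3 (CAT3) take up arginine, lysine and ornithine without a heavy chain. SLC1A4 (ASCT1) and SLC1A5 (ASCT2) exchange small neutral amino acids, glutamine among them for SLC1A5, and SLC38A1 (SNAT1) and SLC38A2 (SNAT2) take up glutamine and alanine with sodium. In a plasma cell much of this supply goes into immunoglobulin.

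Array medians over all rows ran from 5.72 to 5.78, and precision is limited by how few arrays there are. Ell2 lay between 14.14 and 14.16 in ELL2 cko cells with LPS, against 15.73 to 16.86 in WT cells with LPS (log2 change -2.11 ± 0.29 SE, adjusted p = 0.000903, limma). Without LPS it lay between 9.78 and 11.17 in ELL2 cko cells, against 10.87 to 11.10 in WT cells, a difference that was not called (log2 change -0.51 ± 0.27, adjusted p = 0.62). The 2 lowest of these ELL2 cko values, 10.38 and 9.78, are those of replicates 1 and 2, which had high markers of other cells (below). The other 2 were 10.75 and 11.17. All 7 measured B cell markers lay above the median gene in every array, but their level moved with the groups: their mean was at least 13.85 in each ELL2 cko array and 11.09 to 13.59 in WT cells with LPS, and 13.66 to 15.30 in ELL2 cko and 15.14 to 15.42 in WT cells without LPS. With LPS 1 of the 7 fell in ELL2 cko cells (median log2 change -0.33) and 6 of the 7 fell in WT cells (median -3.15). The difference of these changes had a median of 2.17 and was called for 0 of the 7 (limma, 6 with an unadjusted p under 0.05). The part of this shift in the transporter differences was not tested. In 4 ELL2 cko arrays markers of other cells stood high. The mean of 14 measured T cell markers (Cd3e, Cd4, Lck and others) was 11.29 and 10.88 in replicates 1 and 2 without LPS and 6.80 and 7.08 in replicates 2 and 3 with LPS, against 4.84 to 5.15 in the other 11 arrays. All 14 markers lay above the median gene in the first pair and 13 in the second, against 4 to 9 elsewhere. NK cell markers (8.95 and 8.83), monocyte and macrophage markers (9.37 and 9.36) and neutrophil markers (10.77 and 10.39) were also high in the first pair. Monocyte and macrophage markers averaged 6.59 and 6.64 in the second pair. They averaged 6.16 in ELL2 cko replicate 4 without LPS, which is not among the 4 arrays, with 15 of 16 above the median gene. The remaining arrays lay between 5.43 and 5.90. Their part in the results was not tested beyond values given without these 4 arrays, which leave 1 ELL2 cko array with LPS and 2 without.

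With LPS, 8 of the 10 transporters rose in WT cells and none fell, against 24.5% of all genes called in that comparison (limma, Benjamini-Hochberg adjusted p under 0.05 over 31350 genes). The median log2 change of the 10 was 1.52, and that of all genes 0.03. In ELL2 cko cells 6 of the 10 rose and none fell, where 10.3% of all genes were called, with a median of 1.32 for the 10 and 0.04 for all genes. Between genotypes with LPS, 4 of the 10 (Slc7a3, Slc3a2, Slc7a5 and Slc1a5) were lower in ELL2 cko cells and none was higher, where 4.66% of all genes were called. The median log2 change of the 10 was -0.39, against 0.02 for all genes. Without LPS 0 of the 10 were called between genotypes with limma, where 0.0128% of all genes were called, and 3 had an unadjusted p under 0.05, as had 2827 of all genes. The LPS changes themselves differed between genotypes for 3 transporters (Slc3a2, Slc7a5 and Slc7a3), each smaller in ELL2 cko cells, where 1.37% of all genes were called. Gene values did not overlap for 8 of the 10 with LPS in WT cells, 6 with LPS in ELL2 cko cells and 4 between genotypes with LPS. Of all genes, 28%, 19.5% and 13.9% did not overlap in these comparisons. As the 10 were chosen with earlier results of these data known, the counts beside those of all genes describe the set and do not test it.

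**Figure D1:**
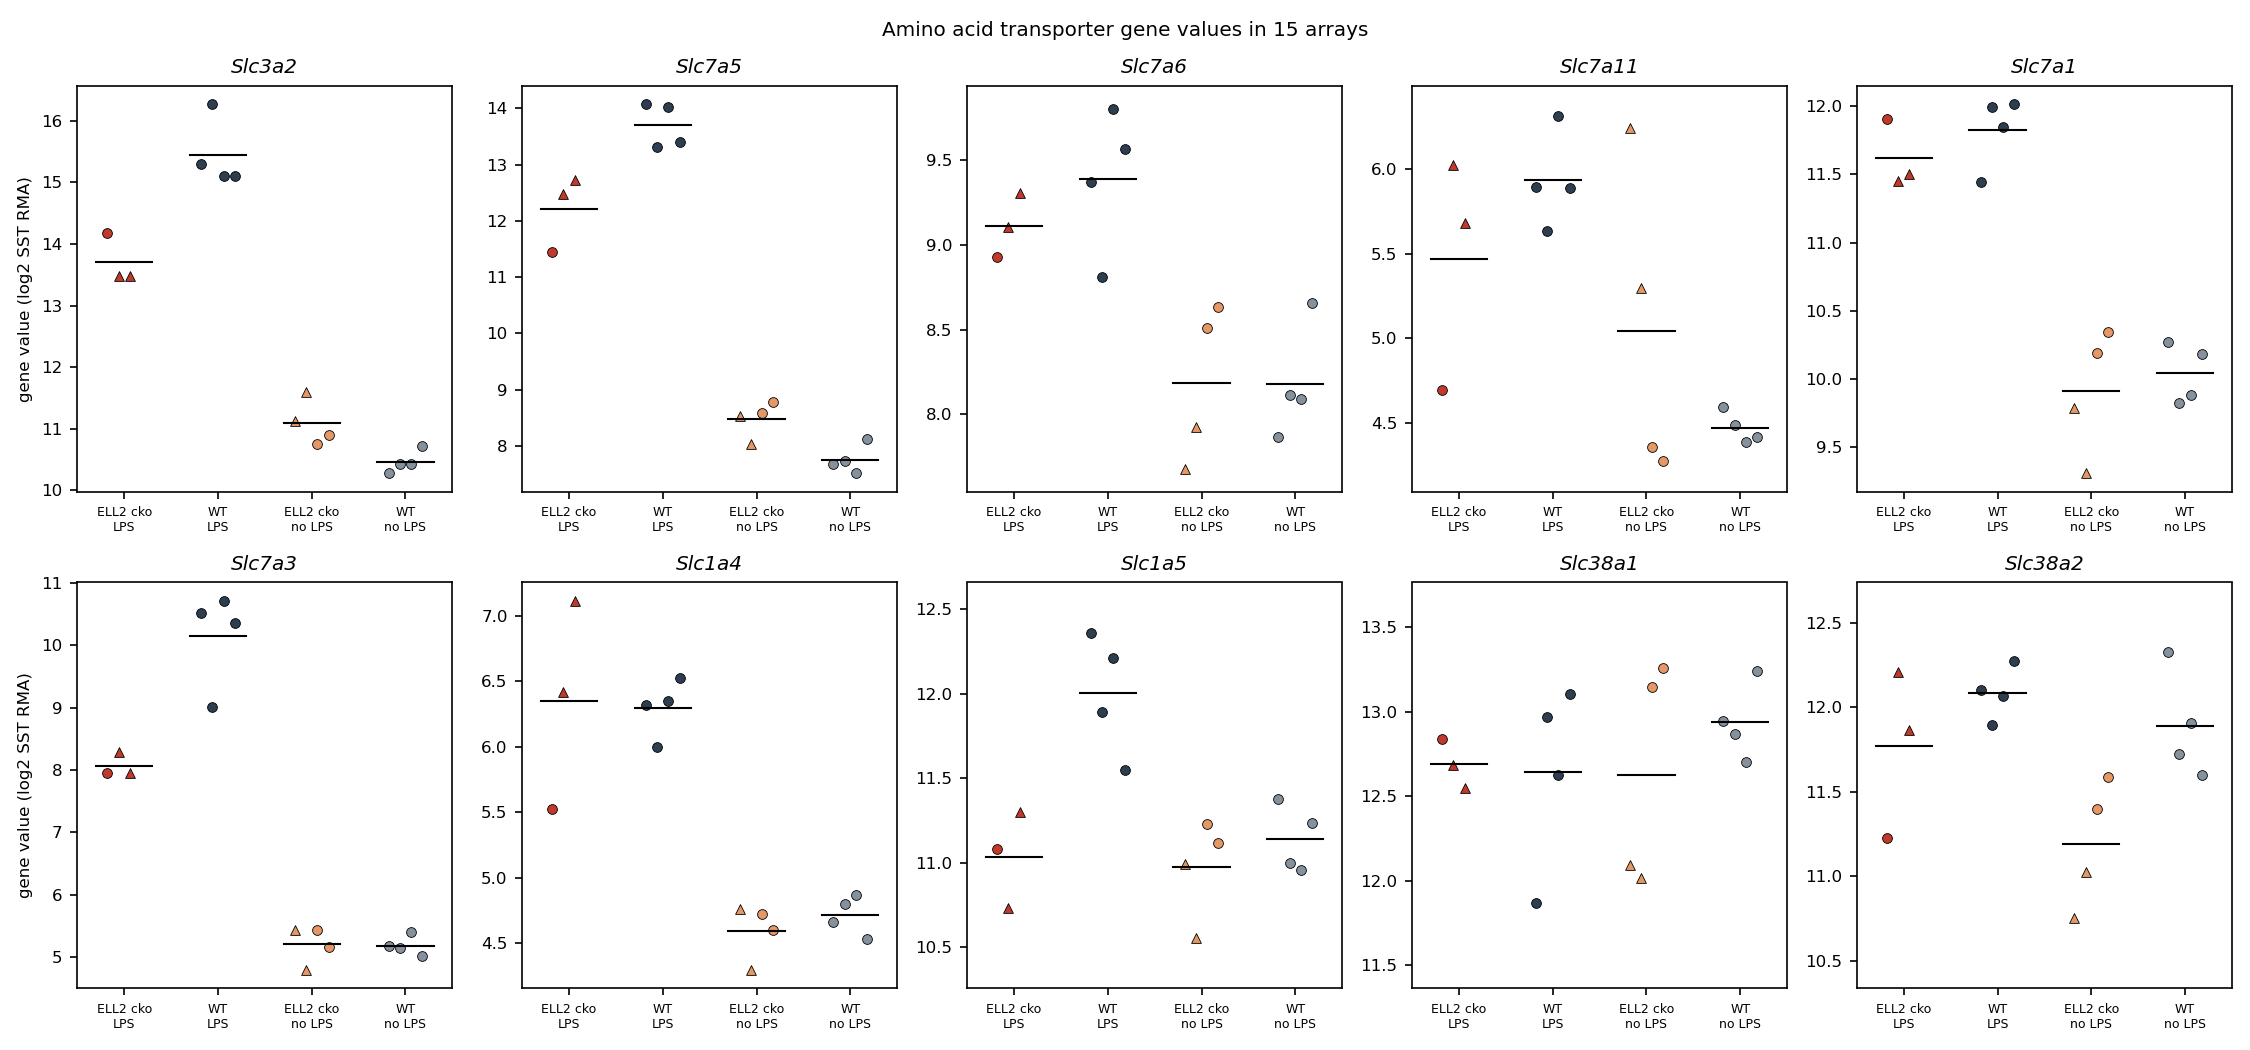
Gene values (log2 SST RMA) of the 10 transporters in each of the 15 arrays, with the mean of each group as a bar; triangles mark the 4 ELL2 cko arrays with high T cell markers. Each panel has its own axis. Slc3a2, Slc7a5 and Slc7a3 with LPS lie lower in every ELL2 cko array than in any WT array, and Slc7a11 without LPS is high in the 2 ELL2 cko arrays drawn as triangles.

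**Figure D2:**
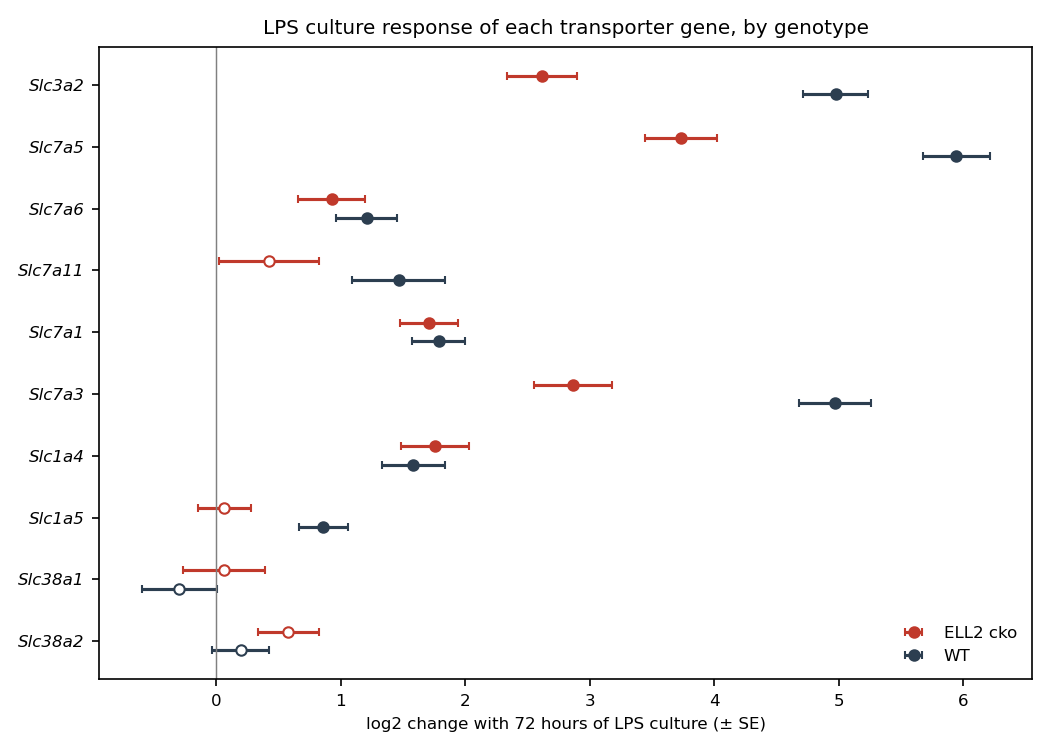
Log2 change with LPS of each transporter in ELL2 cko cells and in WT cells, with the standard error of the model as a bar; filled points have an adjusted p under 0.05. The changes of Slc3a2, Slc7a5 and Slc7a3 are 2.61, 3.74 and 2.86 in ELL2 cko cells and 4.98, 5.94 and 4.97 in WT cells.

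The heavy chain gene Slc3a2 lies on chromosome 19 (GRCm38.p6, chr19:8706882-8723369). Its value was 14.17, 13.48 and 13.48 in ELL2 cko cells with LPS, against 15.29, 16.26, 15.10 and 15.11 in WT cells with LPS. Without LPS it was 11.13, 11.59, 10.75 and 10.90 in ELL2 cko cells, against 10.28, 10.44, 10.43 and 10.72 in WT cells. Every array with LPS lay above every array without LPS, and with LPS the genotypes did not overlap. LPS raised Slc3a2 by 2.61 ± 0.28 log2 units in ELL2 cko cells (adjusted p = 5.95e-05, limma) and by 4.98 ± 0.26 in WT cells (adjusted p = 1.59e-08), which is 6.12-fold and 31.5-fold on this scale. The difference of these changes was -2.36 ± 0.38 (adjusted p = 0.00954). With LPS, Slc3a2 was lower in ELL2 cko than in WT cells by a log2 change of -1.73 ± 0.28 (adjusted p = 0.00282). Without LPS the order was turned, with all 4 ELL2 cko arrays above all 4 WT arrays (log2 change 0.63 ± 0.26), but the adjusted p of 0.497 did not pass. Without the 4 arrays with high T cell markers the genotype difference with LPS was -1.27 (adjusted p = 0.249) and the difference of LPS changes -1.63 (adjusted p = 0.328), neither called.

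Slc7a5, the light chain that takes up leucine, lies on chromosome 8 (chr8:121881146-121907686). It was measured at 11.45, 12.48 and 12.72 in ELL2 cko cells with LPS, against 14.07, 13.32, 14.02 and 13.41 in WT cells with LPS. In cells without LPS the values were 8.53, 8.04, 8.59 and 8.78 in ELL2 cko, against 7.68, 7.73, 7.51 and 8.12 in WT. The genotypes did not overlap with LPS, and overlapped without LPS in a single ELL2 cko array. It rose with LPS by 3.74 ± 0.29 log2 units in ELL2 cko cells (13.3-fold, adjusted p = 6.43e-06, limma) and by 5.94 ± 0.27 in WT cells (61.6-fold, adjusted p = 6.74e-09). These changes differed by -2.21 ± 0.40 (adjusted p = 0.0149). ELL2 cko cells with LPS had less Slc7a5 than WT cells with LPS, by a log2 change of -1.48 ± 0.29 (adjusted p = 0.00902). Without LPS Slc7a5 was 0.72 ± 0.27 above WT in ELL2 cko cells, not called (adjusted p = 0.478). WT replicates 1 and 3 with LPS, the highest in Slc7a5, had the lowest B cell marker means of that group, and what part this has was not tested. Leaving out the 4 arrays with high markers gave a genotype change of -2.25 with LPS (adjusted p = 0.0371) and a difference of LPS changes of -3.18 (adjusted p = 0.15). That fit has 1 ELL2 cko array with LPS, the lowest of the 3 in Slc7a5, which is assumed to vary like the other groups. Within the fit of only the compared groups the genotype change with LPS missed the threshold (adjusted p = 0.0774).

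Slc7a6, the light chain of cationic and neutral exchange (chr8:106168219-106198714), was 8.93, 9.11 and 9.30 in ELL2 cko cells with LPS, against 9.37, 8.81, 9.80 and 9.57 in WT cells with LPS. In cells without LPS it was 7.68, 7.92, 8.51 and 8.63 in ELL2 cko cells, against 7.86, 8.12, 8.09 and 8.66 in WT cells. The genotypes overlapped in both states, and the LPS arrays lay above those without LPS in each genotype. Slc7a6 rose by 0.93 ± 0.27 in ELL2 cko cells (adjusted p = 0.0405, limma) and by 1.21 ± 0.25 in WT cells (adjusted p = 0.00218), and the difference of the changes was not called (-0.28 ± 0.37, adjusted p = 0.84). The 2 lower values of ELL2 cko cells without LPS, 7.68 and 7.92, are those of the arrays with high T cell markers. Without the 4 arrays with high markers its change in ELL2 cko cells was 0.36 (adjusted p = 0.765). The call in ELL2 cko cells was lost in 7 of the 15 fits that left out 1 array, among them each of the 3 that left out an ELL2 cko array with LPS (adjusted p between 0.0539 and 0.149). It was also lost with arrays centred on the median gene and with only the groups compared (adjusted p of 0.0627 and 0.0741, limma).

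The cystine exchanger gene Slc7a11 (chr3:50364936-50499087) had its higher ELL2 cko values in the arrays with markers of other cells, and what part these cells have in it was not tested. Its values were 4.70, 6.03 and 5.68 in ELL2 cko cells with LPS, against 5.90, 5.64, 6.31 and 5.89 in WT cells with LPS. In ELL2 cko cells without LPS they were 6.24, 5.30, 4.36 and 4.27, against 4.59, 4.49, 4.39 and 4.41 in WT cells without LPS. The means without LPS, 5.04 in ELL2 cko and 4.47 in WT cells, lay below the medians of all genes (5.14 and 5.06). Whether Slc7a11 was expressed there was not tested. The highest pairs in the ELL2 cko groups, 6.24 and 5.30 without LPS and 6.03 and 5.68 with LPS, are those with high T cell markers, and the other 3 ELL2 cko arrays lay between 4.27 and 4.70. In WT cells, where no array had such markers, Slc7a11 rose by 1.46 ± 0.37 (adjusted p = 0.00944, limma) without overlap. In ELL2 cko cells the change was 0.42 ± 0.40 (adjusted p = 0.6), and 0.38 without the 4 arrays (adjusted p = 0.544). The difference of the changes was -1.04 ± 0.55 and not called (adjusted p = 0.463).

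Slc7a1, the general arginine and lysine carrier (chr5:148327410-148399904), was 11.91, 11.45 and 11.50 in ELL2 cko cells with LPS, against 11.44, 12.00, 11.85 and 12.01 in WT cells with LPS. Its values without LPS were 9.79, 9.31, 10.19 and 10.35 in ELL2 cko cells, against 10.27, 9.82, 9.88 and 10.18 in WT cells. LPS arrays lay above those without LPS by a wide gap, and genotypes overlapped in both states. The rise was 1.71 ± 0.23 in ELL2 cko cells (adjusted p = 0.000333, limma) and 1.79 ± 0.21 in WT cells (adjusted p = 2.44e-05). The difference of the changes was -0.08 ± 0.32 (adjusted p = 0.958).

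Slc7a3 (chrX:101079146-101090452) codes for a cationic carrier best known from brain. It stood at 7.95, 8.29 and 7.95 in ELL2 cko cells with LPS, against 10.52, 9.01, 10.71 and 10.36 in WT cells with LPS. Without LPS the values were 5.42, 4.79, 5.42 and 5.15 in ELL2 cko cells, against 5.17, 5.15, 5.40 and 5.01 in WT cells. Genotypes overlapped fully without LPS, where the group means (5.20 in ELL2 cko and 5.18 in WT) lay close to the medians of all genes in those groups (5.14 and 5.06), and did not overlap with LPS. With no detection calls, whether it was expressed without LPS was not tested, and no fold is given. Slc7a3 rose by 2.86 ± 0.31 in ELL2 cko cells (adjusted p = 6.88e-05, limma) and by 4.97 ± 0.29 in WT cells (adjusted p = 2.73e-08). The difference of the changes was -2.11 ± 0.43 (adjusted p = 0.0296), and with LPS the genotype change was -2.09 ± 0.31 (adjusted p = 0.00155). The call on the difference was lost in 10 of the 15 fits that left out 1 array (adjusted p between 0.0511 and 0.092 in those). It was also lost with the median over exon regions and junctions. Without the 4 arrays with high T cell markers the genotype change with LPS kept its size at -2.21 with an adjusted p of 0.139. The single ELL2 cko array with LPS and without high markers was 7.95, below all WT arrays with LPS. The 2 highest WT values with LPS, 10.52 and 10.71, are those of replicates 1 and 3, which had the lowest B cell marker means.

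Among the small neutral exchangers, Slc1a4 (chr11:20302180-20332713) was 5.52, 6.42 and 7.11 in ELL2 cko cells with LPS, against 6.32, 6.00, 6.35 and 6.52 in WT cells with LPS. Cells without LPS had 4.76, 4.30, 4.73 and 4.60 in ELL2 cko cells, against 4.66, 4.80, 4.87 and 4.53 in WT cells. The means without LPS, 4.59 in ELL2 cko and 4.72 in WT cells, lay below the medians of all genes (5.14 and 5.06). Whether Slc1a4 was expressed there was not tested. Each genotype rose without overlap, and the lowest and the highest value with LPS both came from ELL2 cko cells. The changes were 1.76 ± 0.27 in ELL2 cko cells (adjusted p = 0.000838, limma) and 1.58 ± 0.25 in WT cells (adjusted p = 0.000278). The 2 high ELL2 cko values are those of the arrays with high T cell markers, and without the 4 arrays the change in ELL2 cko cells was 0.86 (adjusted p = 0.0722).

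The glutamine exchanger gene Slc1a5 (chr7:16781334-16798274) behaved differently. Its values were 11.08, 10.73 and 11.30 in ELL2 cko cells with LPS, against 12.36, 11.89, 12.21 and 11.55 in WT cells with LPS. Without LPS they were 10.99, 10.55, 11.23 and 11.12 in ELL2 cko cells, against 11.38, 11.00, 10.96 and 11.23 in WT cells. The WT arrays with LPS lay above all the others. Slc1a5 rose by 0.86 ± 0.20 in WT cells (adjusted p = 0.00473, limma), a call that was lost with the median over exon regions and junctions (0.96, adjusted p = 0.141), and its change in ELL2 cko cells was 0.06 ± 0.21 (adjusted p = 0.903). The difference of these changes was -0.80 ± 0.29 and not called (adjusted p = 0.232), so the LPS response is not shown to differ between genotypes. With LPS the genotype change was -0.97 ± 0.21 (adjusted p = 0.0183). It was lost without WT replicate 1, without WT replicate 3 or without ELL2 cko replicate 2 with LPS (adjusted p of 0.058, 0.0673 and 0.116), and without the 4 arrays with high T cell markers (-0.92, adjusted p = 0.268). It was also lost with the mean of exon regions, with the median over exon regions and junctions, and with only the groups compared (adjusted p of 0.0532, 0.118 and 0.0905). WT replicates 1 and 3, the highest in Slc1a5, also had the lowest B cell marker means with LPS, 11.09 and 11.61 against 13.59 and 13.44 in WT replicates 2 and 4, and what part this has was not tested.

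The gene values of the sodium-coupled carriers, as medians of exon regions over all 15 arrays, passed the test in none of the 5 comparisons; Slc38a2 passed it with LPS under other summaries. Slc38a1 (chr15:96571418-96643438) was 12.84, 12.68 and 12.55 in ELL2 cko cells with LPS, against 11.87, 12.97, 12.63 and 13.11 in WT cells with LPS. Without LPS the values were 12.09, 12.02, 13.15 and 13.26 in ELL2 cko cells, against 12.95, 12.87, 12.70 and 13.24 in WT cells. All groups overlapped, and the 2 low ELL2 cko values without LPS are those of the arrays with high T cell markers. The LPS change was 0.06 ± 0.33 in ELL2 cko cells (adjusted p = 0.943, limma) and -0.30 ± 0.30 in WT cells (adjusted p = 0.556).

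Slc38a2 (chr15:96687392-96699728), a carrier induced in many cells when amino acids are scarce, was 11.23, 12.21 and 11.87 in ELL2 cko cells with LPS, against 12.10, 11.89, 12.07 and 12.27 in WT cells with LPS. Without LPS it was 10.75, 11.02, 11.40 and 11.58 in ELL2 cko cells, against 12.32, 11.73, 11.91 and 11.60 in WT cells. Without LPS every ELL2 cko array lay below every WT array, the nearest by 11.58 against 11.60, with a log2 change of -0.70 ± 0.23 that was not called (adjusted p = 0.436, limma). In this comparison Slc38a2 and Slc3a2 were the 2 members whose genotypes did not overlap, where 4.81% of all genes did not. The lowest ELL2 cko values, 10.75 and 11.02, are those of the arrays with high T cell markers, and without these arrays the change was -0.40. LPS changed Slc38a2 by 0.58 ± 0.25 in ELL2 cko cells (adjusted p = 0.168) and by 0.20 ± 0.23 in WT cells (adjusted p = 0.613). Both values depend on how the rows are summed up. In ELL2 cko cells the change was 0.96 with the median over exon regions and junctions (adjusted p = 0.0335), and 0.85 without replicate 1 with LPS (adjusted p = 0.0399). In WT cells it was 0.78 with the mean of exon regions (adjusted p = 0.00413) and 1.14 with the median over exon regions and junctions (adjusted p = 0.00298).

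Rows of a single gene did not move as one. The splicing index of a row (its log2 value after subtracting the gene value of the same array) was tested with limma over 567150 rows. Among the 313 rows of the 10 transporters, 123 were called for LPS in WT cells, where 10.8% of all rows were called, and 63 for LPS in ELL2 cko cells, where 1.27% of all rows were called. Between genotypes with LPS 6 rows were called, 5 of them in Slc7a3 and 1 in Slc3a2, where 0.212% of all rows were called. Only 1 of the Slc7a3 rows, and 0 in Slc3a2, reached the median of all rows in both groups compared. Without LPS and for the difference of LPS changes 0 of the 313 rows were called with limma, and 31 and 53 had an unadjusted p under 0.05. A called row changed by more or by less than its gene value did, so a row that kept its level can be called where its gene value moved. With LPS in WT cells, 7 of 38 called rows of Slc7a3, 7 of 10 of Slc7a5 and 7 of 13 of Slc3a2 reached the median of all rows in both groups. The numbers were 4 of 9 in Slc7a1, 1 of 3 in Slc7a6, 0 of 12 in Slc7a11 and 0 of 7 in Slc1a4. They were 3 of 3 in Slc1a5 and 14 of 14 in both Slc38a1 and Slc38a2.

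**Figure D3:**
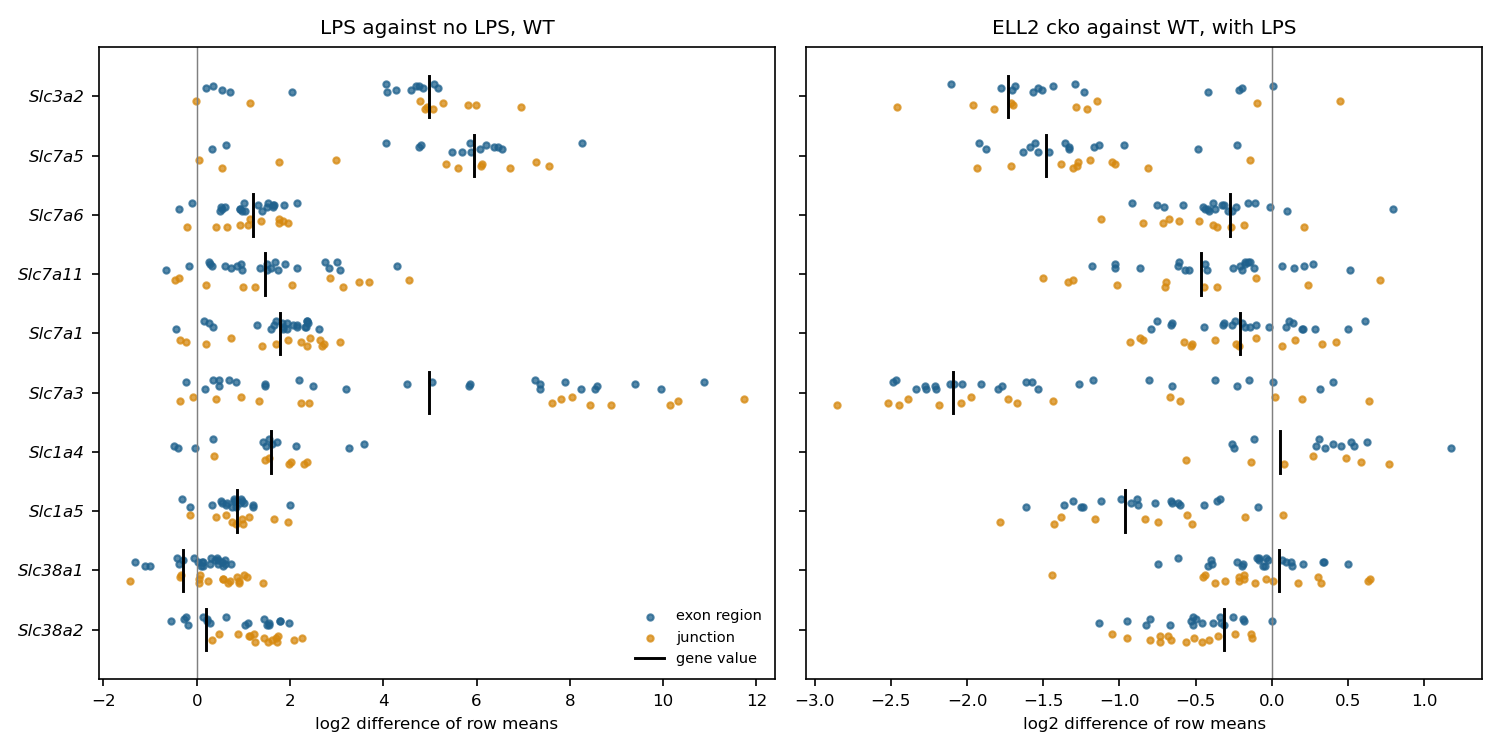
Log2 difference of group means for every exon region and junction of the 10 transporters, LPS against no LPS in WT cells on the left and ELL2 cko against WT cells with LPS on the right, with the change of the gene value as a black bar. Slc7a3 rows range from -0.35 to 11.74 on the left, and in Slc38a2 the gene value of 0.20 lies below most rows.

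Rows were also counted by whether the groups overlap. With LPS in WT cells 32 of 41 Slc7a3 rows, 22 of 26 Slc7a5 rows, 19 of 24 Slc3a2 rows, 28 of 36 Slc7a1 rows and 20 of 33 Slc38a2 rows lay above all arrays without LPS, where 13.2% of all rows did. The counts were 15 of 19 in Slc1a4, 21 of 34 in Slc7a11, 18 of 31 in Slc7a6 and 12 of 29 in Slc1a5. Slc38a1 had 5 of 40 above and 4 below. Between genotypes with LPS, ELL2 cko arrays lay below all WT arrays in 24 of 41 Slc7a3 rows, 18 of 26 Slc7a5 rows, 18 of 24 Slc3a2 rows and 17 of 29 Slc1a5 rows, where 6.98% of all rows did. Slc7a1 had 4 of 36 such rows, Slc38a2 6 of 33, Slc7a6 2 of 31, Slc7a11 1 of 34, and Slc1a4 and Slc38a1 0. These counts have no test of their own, and rows of a gene share their RNA and their arrays.

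Slc7a3 shows the widest spread of rows. Its 26 exon regions had group means between 3.36 and 14.60 in ELL2 cko cells with LPS, against 4.18 to 16.22 in WT cells with LPS, and between 3.16 and 6.70 in WT cells without LPS. In WT cells 13 of the 26 changed by at least 5 log2 units with LPS and 7 by less than 1. Exon region PSR0X00017045.mm.1 was 13.99, 14.23 and 14.34 in ELL2 cko cells with LPS, against 16.32, 15.15, 16.59 and 16.34 in WT cells with LPS. Without LPS it was 7.98, 5.60, 6.80 and 7.09 in ELL2 cko cells, against 6.45, 6.76, 7.18 and 6.42 in WT cells. Its rise exceeded that of the Slc7a3 median by 4.46 ± 0.32 in ELL2 cko cells (adjusted p = 4.17e-05, limma) and by 4.43 ± 0.30 in WT cells (adjusted p = 1.83e-06). The gene value of Slc7a3 thus lies between rows that rose more and rows that stayed low.

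Of the 15 Slc7a3 junctions 3 had a mean over 10 in WT cells without LPS, where no exon region of the gene passed 6.70. The brightest, JUC0X00008652.mm.1, was 17.51 in ELL2 cko and 17.31 in WT cells with LPS, and 17.19 in ELL2 cko and 16.89 in WT cells without LPS. It was high in every group, and the genotypes overlapped both with and without LPS. Relative to the gene median its index was called lower with LPS in WT cells (-4.55 ± 0.38, adjusted p = 8.81e-06, limma) and higher in ELL2 cko than in WT cells with LPS (2.29 ± 0.41, adjusted p = 0.0389), while its own values differed by 0.42 and 0.20.

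**Figure D4:**
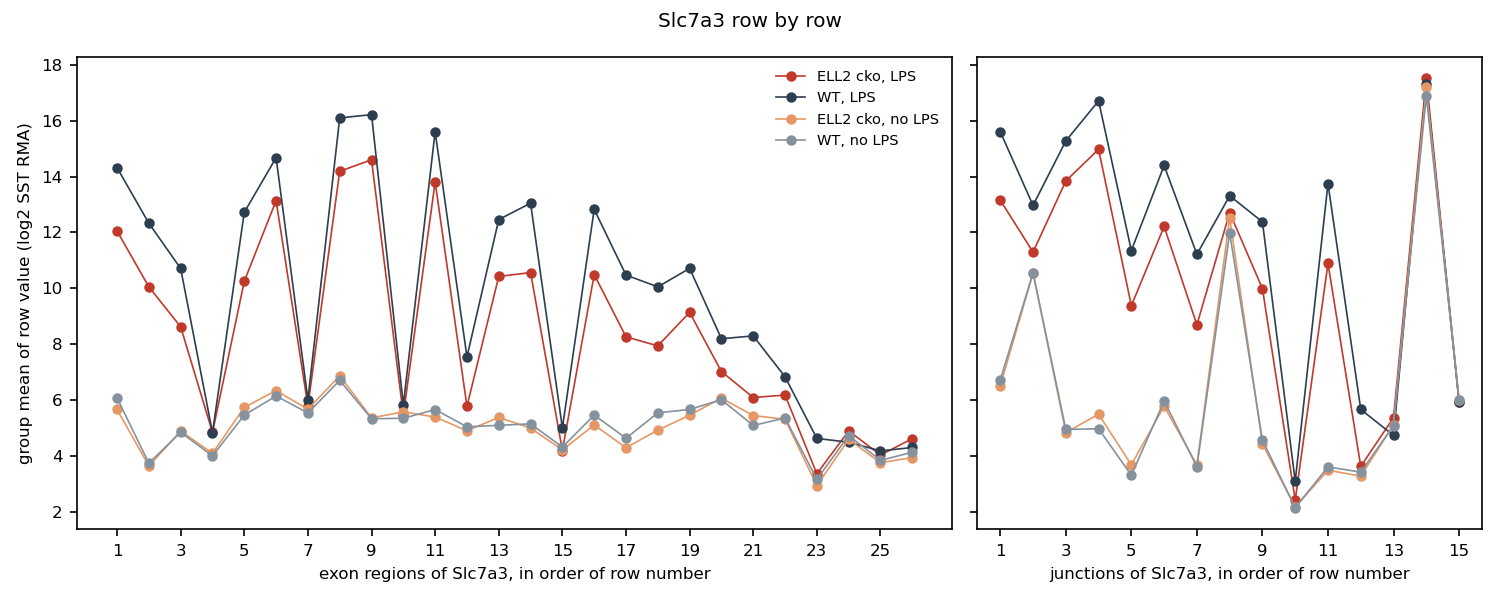
Group means (log2 SST RMA) of the 26 exon regions and 15 junctions of Slc7a3, ordered by row number, in the 4 groups. The LPS groups part from those without LPS in most exon regions, with ELL2 cko below WT, while the junction at position 14 lies at about the same level in all 4 groups.

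In Slc38a2, all 14 called rows (8 exon regions and 6 junctions) rose more with LPS in WT cells than the gene median did. Exon region PSR1500017194.mm.1 was 11.58, 12.74 and 11.77 in ELL2 cko cells with LPS, against 13.13, 12.75, 12.92 and 13.10 in WT cells with LPS. Without LPS it was 10.42, 11.05, 11.24 and 11.56 in ELL2 cko cells, against 11.44, 11.06, 10.78 and 11.44 in WT cells. WT arrays with LPS lay above all others. Its index rose by 1.60 ± 0.22 in WT cells (adjusted p = 0.000356, limma), and that of PSR1500017193.mm.1 by 1.36 ± 0.20 (adjusted p = 0.000805). In Slc38a1 13 of 14 called rows moved up against the median and 1 down, 9 of the 13 being junctions. Its junction JUC1500009775.mm.1 averaged 10.69 in ELL2 cko and 10.52 in WT cells with LPS, and 9.22 in ELL2 cko and 9.10 in WT cells without LPS, and its index rose by 1.41 ± 0.30 in ELL2 cko cells (adjusted p = 0.0334) and by 1.72 ± 0.27 in WT cells (adjusted p = 0.0012). Both SLC38 carriers thus held rows that moved with LPS while their gene values were not called.

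Other members had called rows as well. In Slc7a5 junction JUC0800012932.mm.1 averaged 11.36 in ELL2 cko and 12.40 in WT cells with LPS, and 10.54 in ELL2 cko and 10.63 in WT cells without LPS. Its index fell by 4.17 in WT cells (SE 0.23, adjusted p = 3.82e-07, limma). In Slc3a2 exon region PSR1900009963.mm.1 averaged 6.60 in ELL2 cko and 8.16 in WT cells with LPS, and 6.19 in ELL2 cko and 6.12 in WT cells without LPS, with an index change of -2.93 ± 0.28 in WT cells (adjusted p = 2.77e-05). In Slc7a1 exon region PSR0500033391.mm.1 averaged 10.23 in ELL2 cko and 9.73 in WT cells with LPS, and 10.26 in ELL2 cko and 10.17 in WT cells without LPS. Its index changed by -1.75 ± 0.33 in ELL2 cko cells (adjusted p = 0.0198) and by -2.23 ± 0.30 in WT cells (adjusted p = 0.000382).

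Promoter windows (250 bases before to 50 after a start site, RefSeq, GRCm38.p6) were given for 6 members: Slc7a1, Slc7a6, Slc7a11, Slc3a2, Slc1a4 and Slc38a2. They were searched on both strands for CACGTG, the E box bound by MYC, for TGATGNAAN, the composite element of ATF4 and C/EBP factors, and for TGACNNNGC, the antioxidant element of NRF2. ATF4 induces amino acid transporters when amino acids are scarce. The E box is in 7.15% of the other 32843 windows, the composite element in 3.95% and the antioxidant element in 12.4%. The E box was in none of the windows of the 6. The composite element was in the windows of Slc7a11 and Slc1a4, and the antioxidant element in those of Slc7a1, Slc7a6 and Slc38a2. Shown are the windows of both genes with the composite element, and of Slc3a2, which was lower in ELL2 cko than in WT cells with LPS and holds none of the 3 motifs. Capitals mark the composite element, found in Slc7a11 at position -66 on the plus strand of the window and at -48 on its minus strand, and in Slc1a4 at -5 on its minus strand, counted from the start site. The start sites of the Slc7a11 and Slc3a2 windows lie inside the annotated genes. A match is a description of letters and shows no binding, and no match says only that these letters are not in the window.
Slc7a11 (chr3:50443564-50443863, minus strand): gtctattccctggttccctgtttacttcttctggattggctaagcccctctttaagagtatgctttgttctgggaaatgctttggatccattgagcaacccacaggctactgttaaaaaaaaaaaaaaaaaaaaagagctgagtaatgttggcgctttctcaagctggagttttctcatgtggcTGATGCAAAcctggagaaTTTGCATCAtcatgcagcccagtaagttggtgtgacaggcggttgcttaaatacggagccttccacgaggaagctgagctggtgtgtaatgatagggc
Slc1a4 (chr11:20332664-20332963, minus strand): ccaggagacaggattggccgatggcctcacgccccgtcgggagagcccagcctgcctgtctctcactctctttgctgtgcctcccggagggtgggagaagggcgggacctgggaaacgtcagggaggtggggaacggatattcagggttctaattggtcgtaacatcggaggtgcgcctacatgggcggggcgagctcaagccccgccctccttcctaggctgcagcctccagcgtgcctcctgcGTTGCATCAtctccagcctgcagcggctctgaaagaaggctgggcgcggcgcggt
Slc3a2 (chr19:8713848-8714147, minus strand): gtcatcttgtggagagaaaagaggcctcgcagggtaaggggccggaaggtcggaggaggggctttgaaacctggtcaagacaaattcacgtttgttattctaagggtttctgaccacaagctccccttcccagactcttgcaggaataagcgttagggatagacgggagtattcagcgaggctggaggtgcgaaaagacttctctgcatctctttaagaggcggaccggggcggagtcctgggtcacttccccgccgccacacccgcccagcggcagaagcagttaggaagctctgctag

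Of 29 other plasma membrane amino acid transporters measured, 4 rose and 1 fell with LPS in WT cells (median log2 change 0.09), and 2 rose and none fell in ELL2 cko cells (median 0.04). These are 17.2% of the list in WT and 6.9% in ELL2 cko cells, below the shares of all genes called. Slc7a7, a further light chain of SLC3A2 (y+LAT1), averaged 9.33 in ELL2 cko and 10.12 in WT cells with LPS, and 7.46 in ELL2 cko and 6.48 in WT cells without LPS. It rose by 1.87 ± 0.22 in ELL2 cko cells (adjusted p = 0.000115, limma) and by 3.64 ± 0.20 in WT cells (adjusted p = 2.07e-08), and the changes differed by -1.77 ± 0.30 (adjusted p = 0.0113), or by -1.57 without the 4 arrays with high T cell markers (adjusted p = 0.299). Slc6a9, a glycine carrier, rose by 1.18 ± 0.24 in ELL2 cko cells and by 1.85 ± 0.22 in WT cells. Slc7a8 (LAT2), the other leucine carrier with the same heavy chain, rose by 3.87 ± 0.61 in WT cells (adjusted p = 0.000256) and changed by 0.44 ± 0.66 in ELL2 cko cells, where it was 7.08 and 6.56 in the arrays without LPS that have high T cell markers and 4.43 and 4.68 in the other 2. Slc1a1, a glutamate carrier, rose by 1.84 ± 0.42 in WT cells, and Slc43a2, a leucine carrier without a heavy chain, fell by 1.76 there. None of the 29 was called between genotypes: with LPS 6 had an unadjusted p under 0.05, all lower in ELL2 cko cells, and without LPS 4, all higher (limma).

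Of 16 lysosomal and intracellular transporters 4 rose and 2 fell with LPS in WT cells, and 0 rose and 2 fell in ELL2 cko cells. These are 37.5% of the list in WT cells, against 24.5% of all genes. In ELL2 cko cells they are 12.5%, close to the 10.3% of all genes. Between genotypes with LPS 12.5% of the list was called, against 4.66% of all genes. Slc66a1, which exports cationic amino acids from lysosomes, fell by 1.62 in ELL2 cko and by 1.44 in WT cells. With LPS 2 of the 16 were lower in ELL2 cko than in WT cells and none was higher: Slc38a10 (8.02 in ELL2 cko and 9.86 in WT cells, log2 change -1.84 ± 0.28, adjusted p = 0.0018, limma) and Slc17a5, the lysosomal sialic acid carrier (8.92 in ELL2 cko and 9.90 in WT cells, -0.98 ± 0.26, adjusted p = 0.0449). Without the 4 arrays with high T cell markers none of the 16 was called between genotypes with LPS, with -1.41 for Slc38a10 and -1.10 for Slc17a5 (adjusted p of 0.151 and 0.378).

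Genes of mTORC1 and amino acid sensing moved both ways. Of 35 measured, 8 rose and 8 fell with LPS in WT cells, and 4 rose and 2 fell in ELL2 cko cells. These are 45.7% of the list in WT and 17.1% in ELL2 cko cells, where 24.5% and 10.3% of all genes were called. Sesn2, a leucine sensor that ATF4 induces, averaged 8.11 in ELL2 cko and 9.63 in WT cells with LPS, and rose by 1.50 ± 0.29 in ELL2 cko cells (adjusted p = 0.00465, limma) and by 3.21 ± 0.27 in WT cells (adjusted p = 9.07e-07). Eif4ebp1, an mTORC1 target that restrains translation, rose by 2.39 ± 0.22 in ELL2 cko and 3.12 ± 0.20 in WT cells, and Sesn1 fell by 2.01 in ELL2 cko and 2.60 in WT cells. Between genotypes with LPS, 2 of the 35 were higher and 4 lower in ELL2 cko cells, 17.1% of the list against 4.66% of all genes. Sesn2 (-1.53 ± 0.29, adjusted p = 0.0082) and Sec13 (-1.83 ± 0.40, adjusted p = 0.0161), a subunit of GATOR2 and of the COPII coat, were lower, and Sesn3 was higher (1.71 ± 0.40, adjusted p = 0.0237). Castor1, an arginine sensor, was called higher (2.15 ± 0.48, adjusted p = 0.0192), with 7.88 and 7.92 in the ELL2 cko arrays with high T cell markers and 5.48 in the third, against 4.51 to 5.58 in WT cells. Without the 4 arrays 0 of the 35 were called in this comparison, with -1.11 for Sesn2, -1.55 for Sec13, 1.02 for Sesn3 and 0.54 for Castor1.

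Of 16 genes of the ATF4 and NRF2 regulators and the amino acid response, 8 rose and 2 fell with LPS in WT cells, and 5 rose and 1 fell in ELL2 cko cells. These are 62.5% of the list in WT and 37.5% in ELL2 cko cells, where 24.5% and 10.3% of all genes were called. Between genotypes with LPS 2 of the 16 were lower in ELL2 cko cells and none was higher. That is 12.5% of the list, against 4.66% of all genes. Chac1, which degrades glutathione and is an ATF4 target, was 7.36, 6.92 and 7.16 in ELL2 cko cells with LPS, against 9.45, 11.69, 10.62 and 10.24 in WT cells with LPS. It rose by 2.57 ± 0.38 in ELL2 cko cells (adjusted p = 0.000596, limma) and by 6.12 ± 0.35 in WT cells (adjusted p = 2.48e-08). The difference of the changes was -3.55 ± 0.52 (adjusted p = 0.00736), and the genotype change with LPS -3.35 ± 0.38 (adjusted p = 0.000262). Without the 4 arrays with high T cell markers, which leaves 1 ELL2 cko array with LPS, the genotype change was -3.14 (adjusted p = 0.0917) and the difference -3.05 (adjusted p = 0.297). Asns, which makes asparagine and is also an ATF4 target, rose by 4.21 ± 0.52 in ELL2 cko and by 5.61 ± 0.48 in WT cells, and its genotype change with LPS was not called (-0.29 ± 0.52, adjusted p = 0.862). Atf4 itself was 10.50, 10.14 and 10.88 in ELL2 cko cells with LPS, against 11.95, 11.93, 11.86 and 11.85 in WT cells with LPS. These arrays did not overlap, where 13.9% of all genes did not, and the log2 change of -1.39 ± 0.40 was not called (adjusted p = 0.0634, limma).

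Enzymes that use the imported amino acids were counted in 3 further lists: arginine and polyamines, cystine and glutathione, and glutamine and neutral amino acids. With LPS in WT cells 60%, 36.4% and 66.7% of these lists were called, against 24.5% of all genes. In ELL2 cko cells the shares were 50%, 27.3% and 50%, against 10.3% of all genes. Between genotypes with LPS they were 10%, 9.09% and 0%, against 4.66% of all genes. In the polyamine and arginine list 5 of 10 rose and 1 fell in WT cells, and 4 rose and 1 fell in ELL2 cko cells: Srm, which makes spermidine, rose by 2.38 ± 0.29 in ELL2 cko and 3.78 ± 0.27 in WT cells, and Odc1, which makes putrescine, by 1.76 ± 0.34 in ELL2 cko and 2.20 ± 0.32 in WT cells. Azin1, which relieves ODC1 of its inhibitor, was lower in ELL2 cko than in WT cells with LPS (-1.07 ± 0.23, adjusted p = 0.0148, limma), and not called without the 4 arrays with high T cell markers (-0.87, adjusted p = 0.403). For cystine and glutathione use, 4 of 11 rose in WT and 3 in ELL2 cko cells, with Cth, which makes cysteine, up by 2.32 ± 0.25 in ELL2 cko and 2.31 ± 0.24 in WT cells. In the list of glutamine and neutral amino acid use 7 of 12 rose and 1 fell in WT cells, and 5 rose and 1 fell in ELL2 cko cells. Psat1, which makes a serine precursor with glutamate as donor, rose by 2.82 ± 0.27 in ELL2 cko and 3.20 ± 0.25 in WT cells. None of these 12 was called between genotypes with LPS (limma, 4 with an unadjusted p under 0.05).

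Among the 10 themselves, Slc1a4 and Slc7a1 had the smallest distance of all pairs over the 15 arrays (root mean square difference of centred log2 values 0.47). Among the 3 whose LPS change differed between genotypes, Slc7a3 and Slc7a5 were nearest to each other (0.68). Slc3a2 and Slc7a3 (0.74) and Slc3a2 and Slc7a5 (0.81) followed. The distance is not scaled by the spread of a gene, so it does not rank likeness of course. That spread (root mean square of the centred values) was 0.90 in Slc1a4 and 0.93 in Slc7a1, against 2.18 in Slc7a3 and 2.56 in Slc7a5. Further neighbours were sought among genes with a RefSeq symbol, leaving out the members and predicted or clone-named genes (Gm, Rik and like symbols). The nearest to Slc7a5 were the immunoglobulin light chain segment Igkv5-43 (0.47), the proline synthesis gene Pycr1 (0.56) and the ER gene Sdf2l1 (0.57). To Slc3a2 they were the segments Ighv1-43 (0.47), Igkv4-70 (0.49) and Ighv1-7 (0.53), and to Slc7a3 Igkv5-45 (0.31), Tceal9 (0.38) and Alcam (0.38). Nearest to Slc7a1 were Iqgap3, Map3k20 and Clspn (0.28 to 0.30), and to Slc1a4 Iars, Dhcr7 and Papln (0.27 to 0.30). Slc1a5 had Stx5a, Rab18 and Rabl6 (0.14 to 0.19), Slc7a6 had Ddx1, Slc25a51 and Ubl7 (0.22 to 0.23), and Slc7a11 had Plxna1, Itgb5 and Atg5 (0.29 to 0.35). The spread of these members was small, 0.49 in Slc1a5, 0.64 in Slc7a6 and 0.75 in Slc7a11, against 2.56 in Slc7a5. Between members, a smaller distance therefore need not mean a closer match. These distances share the arrays and their cell make-up and carry no test.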

How the data were processed

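Splenic B cell RNA of 15 samples was hybridised to Affymetrix exon and junction arrays, 1 array each. Per the labels, the authors made the values in Affymetrix Expression Console with RMA and a signal space transformation (SST), a step that widens fold changes. The deposited values were on a log2 scale and were used unchanged. Versions are not given in the sources used here. Of 725678 rows, 580167 had 1 gene symbol, and the 18694 with several symbols and 126817 with none were left out. Symbols were updated through RefSeq synonyms (1493 cases).

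A gene's value is the median of its exon regions. A limma model (limma 3.58.1, R 4.3.3) with a mean for each of 4 groups was fitted to all 31350 genes, with two-sided moderated tests of 5 contrasts and Benjamini-Hochberg adjustment over all genes; calls are at an adjusted p under 0.05. The SE is that of the model, which assumes 1 spread per gene in all groups. The splicing index was fitted over all rows of genes with at least 3 exon regions. Each test was first run on simulated data. Per the labels' protocols cells were isolated from each mouse, and no batch is named. Alternatives were another gene summary, centring, a filter on dim genes, trend and robust moderation, the replicate block, only the groups compared, and each array left out in turn.

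The members and gene lists were chosen with earlier results of these data known. Named are Ell2, the 10 members, up to 4 called genes with the largest change per further list and comparison (6 for other plasma membrane transporters), a selection of which is given, the 3 genes nearest in pattern to each called member, and at most 2 called rows per member that reach the median of all rows in both groups.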

Additional observations from a re-analysis of the deposited data

Results flagged for a closer look

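In Slc3a2, 1 WT array with LPS (replicate 2) stood apart at 16.26, with the nearest of the other 3 at 15.29. Of the 10 transporters in the groups of 4 arrays, 30 sets of values were examined in this way, and chance sets apart about 1 in 20. Without that array the genotype change with LPS kept its direction and its call.

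The LPS change differed between genotypes, by a test of the difference itself, in 3 transporters: by -2.36 in Slc3a2, by -2.21 in Slc7a5 and by -2.11 in Slc7a3 (log2 change in ELL2 cko minus that in WT). None of the 3 was called without the 4 ELL2 cko arrays with high T cell markers, which leaves 1 ELL2 cko array with LPS, where the values were -1.63, -3.18 and -2.31.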

How the results depend on the processing

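With LPS in WT cells the 8 calls held in every fit that left out 1 array (8 to 8 of the 10, 6486 to 7847 of all genes), while Slc1a5 lost its call with the median over exon regions and junctions (adjusted p = 0.141). In ELL2 cko cells leaving out 1 array left 5 to 6 members and 1930 to 3412 genes, between genotypes with LPS 3 to 4 members and 556 to 2164 genes, without LPS 0 to 0 members and 0 to 29 genes, and for the difference of LPS changes 2 to 3 members and 109 to 1072 genes. The cause was not tested. Genes called between genotypes with LPS numbered 863 and 724 without WT replicate 1 or 3 with LPS, and 556 and 590 without ELL2 cko replicate 2 or 3 with LPS. For the difference, the count was 1072 without WT replicate 2 with LPS, 707 without ELL2 cko replicate 1 with LPS, and 109 and 124 without its replicate 2 or 3. With only the groups compared, 2159 genes were called for LPS in ELL2 cko cells, and 444 genes and 2 members between genotypes with LPS. Without the 4 ELL2 cko arrays with high T cell markers, tried only once the data had been seen, counts were 1306 genes for LPS in ELL2 cko cells, 35 genes and 1 member between genotypes with LPS, and 0 genes and 0 members for the difference. Between genotypes without LPS the 4 genes called fell to 0 with centred arrays, with only genes reaching the median gene, with trend and robust settings, with the replicate block, with only the groups compared and without those 4 arrays. The labels do not say whether replicate numbers pair the samples, and 3 or 4 pairs per comparison cannot decide it. Deviations of same-numbered arrays correlated between -0.28 and 0.25, and 2 of 4, 1 of 3, 0 of 3 and 1 of 4 arrays matched their own number best. With the replicate block the genes called were 7534, 3009, 1400, 0 and 346 in the 5 comparisons, and the members called 8, 6, 4, 0 and 3. With the mean of exon regions as the centre, 3 rows of the members in place of 6 were called between genotypes with LPS. No member changed direction past a call.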
